A study of Homo sapiens with 6 samples.

Results

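The genes described here encode the proteasome, its activators and its assembly factors. They were chosen by name alone, as the symbols of the deposited table that begin with PSM, a letter from A to G and a digit, and 49 of 21863 symbols met this rule. They comprised 7 core alpha genes (PSMA1 to PSMA7), the testis gene PSMA8, 7 constitutive core beta genes (PSMB1 to PSMB7), 4 tissue-specific beta genes (PSMB8 to PSMB11), 6 ATPase genes, 3 base genes that are not ATPases, 8 lid genes, 3 base chaperones, 4 activators, the inhibitor PSMF1 and 4 core chaperones. The rule also took PSMC3IP, which is named for its binding to an ATPase subunit and encodes a protein of meiotic recombination.

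RNA came from Hep G2, a human hepatic tumor cell line, in 3 conditions. Cells received a dsRNA mimic of miR-195 at 5 nM for 24 hours, a dsRNA mimic of miR-497 at the same dose and time, or no transfection, with a labelled time of 0 hours. Each condition gave 1 library of total RNA and 1 library of RNA recovered with an antibody to Argonaute 2, the protein that holds miRNAs on their targets (Ago2-IP). With 1 library in each of the 6 groups no value has a spread between replicates, and no test between conditions was possible. The groups stand for 1 cell line, no group received a control dsRNA, and transfection and labelled time differ between mimic and non-transfected cells, so mimic, transfection and time cannot be told apart. Every mimic comparison uses the same non-transfected libraries.

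The proteasome is the protease complex that degrades ubiquitin-tagged proteins. Its barrel-shaped core consists of outer alpha rings, which gate the entry, and inner beta rings, in which PSMB5, PSMB6 and PSMB7 carry the proteolytic sites. The regulatory particle binds the ends of the barrel, where a ring of ATPases unfolds the substrate and the lid removes its ubiquitin. Interferon induces PSMB8, PSMB9 and PSMB10, which replace the constitutive catalytic subunits in the immunoproteasome and alter the peptides offered to T cells. In most cells the subunit genes are transcribed together, and the transcription factor NFE2L1 raises them when proteasome activity is short.

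The mature miRNAs are shown because both mimics carry the same seed, bases 2 to 8, here in capitals (RefSeq, GRCh38.p14):
hsa-miR-195-5p: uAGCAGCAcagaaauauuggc
hsa-miR-497-5p: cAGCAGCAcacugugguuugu

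The 7-base word that pairs with this seed, TGCTGCT, occurred in annotated 3′UTRs of 10 proteasome genes (20.4%), compared with 4608 of 18213 genes with a 3′UTR (25.3%). The 3′UTRs of the proteasome genes were short, with a median of 366 bases against 1109 for all genes. The sites shown here belong to 2 ATPases, a lid subunit and a core beta subunit whose values are described below, with the word in capitals and 8 flanking bases on each side (hg19, strand of the gene). PSMC2 has its site at chr7:103009569-103009575, PSMD7 at chr16:74339691-74339697 and PSMC1 at chr14:90740879-90740885, all on the plus strand. PSMB2, the constitutive beta gene with the lowest RPKM, has it at chr1:36066616-36066622 on the minus strand.
PSMC2: atagaaaaTGCTGCTttgcactg
PSMD7: aatcagtgTGCTGCTagagggtt
PSMC1: cagaccttTGCTGCTaaaagtat
PSMB2: cagtggagTGCTGCTactaaagc

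The sites of PSMD7, PSMC1 and PSMB2 are followed by an A, which gives the 8-base form TGCTGCTA. That form was present in 3 proteasome genes (6.12%) and in 5.14% of all genes with a 3′UTR. The other genes with TGCTGCT were PSMA5, PSMD9, PSMD11, PSME3, PSMF1 and PSMG4. PSMF1 had 4 sites, PSMB2 had 2 and PSME3 had 2 overlapping ones, and the site of PSMG4 lay only in a transcript that is not its principal one.

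Expression was deposited as RPKM, reads scaled by gene length and library depth. The depth, inferred from the steps between low values, was 24730000 to 30970000 mapped reads in total RNA and 10650000 to 16830000 in Ago2-IP. The number of genes above 0 ranged from 14465 to 15788. Read numbers were recovered for 43 proteasome genes, and the 95% intervals given below rest on them and cover counting error alone. Of 7 hepatocyte and Hep G2 markers none was at 0 and their summed RPKM was 7614 to 7864 in total RNA and 743 to 1016 in Ago2-IP. Of 5 markers of other cells, PTPRC and COL1A2 were at 0 in all 6 libraries. The 5 together summed to 10.9 to 14.3 in total RNA and 0.848 to 2 in Ago2-IP. CD68 made up most of the total RNA sums, with 10.5 RPKM without transfection, 13.1 under miR-195 and 13.8 under miR-497.

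Proteasome genes were among the abundant transcripts of Hep G2. In total RNA of non-transfected cells the 47 genes above 0 had a median of 81.2 RPKM, which was 14.7 times the median of all genes above 0 (5.51 RPKM), and 45 of the 47 lay above that median. In Ago2-IP RNA of the same cells the median of the 48 genes above 0 was 8.66 RPKM, 4.29 times that of all genes. The same 47 genes were above 0 in all 6 libraries. PSMA8, the testis alpha subunit, was listed at 0 in every library. PSMB11, the thymus beta subunit, was listed at 0 in total RNA and under miR-195 in Ago2-IP, and its 0.0314 RPKM without transfection and 0.0496 RPKM under miR-497 in Ago2-IP each amounted to about 1 read.

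Subunits that stand in the complex in equal numbers did not have equal RPKM. The core alpha genes had the highest class median in non-transfected total RNA, 191 RPKM, and ranged from 44.5 RPKM for PSMA5 to 342 RPKM for PSMA6. The constitutive core beta genes had a median of 144 RPKM, from 29.3 RPKM for PSMB2 to 293 RPKM for PSMB5. The highest alpha gene was therefore 7.69 times the lowest, and the highest constitutive beta gene 9.98 times the lowest. The length inferred from the steps of the deposited values was 3864 bases for PSMA5 and 4845 for PSMB2, against 2057 for PSMA1 and 925 for PSMB4. For PSMA1 and PSMB2 the nearest annotated transcripts are shorter, with 1527 and 4426 bases. With these inferred lengths PSMA5 and PSMB2 had 4250 and 3516 reads in non-transfected total RNA, near the 4227 of PSMA1 and the 3302 of PSMB4. The part of the counted length in their low RPKM was not tested. The lid genes were closer to each other, with a median of 85.5 RPKM and a range from 57.4 RPKM for PSMD13 to 159 RPKM for PSMD11, a factor of 2.78.

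The ATPases had a median of 72 RPKM, and 5 of the 6 lay between 53.7 RPKM for PSMC6 and 116 RPKM for PSMC5. PSMC1 was the exception, with 0.867 RPKM without transfection, 0.43 under miR-195 and 0.611 under miR-497 in total RNA and with 0.45, 0.278 and 0.178 RPKM in Ago2-IP. These values rest on 34, 20 and 30 reads in total RNA and on 12, 6 and 3 reads in Ago2-IP. For PSMC1, 97.9% of the 36-base windows of an annotated transcript of 1389 bases also matched another place in the genome with at most 2 mismatches. In addition, 13 annotated pseudogenes carry its name. How the mapping treated such reads is not given in the sources used here, and its part in the low value was not tested.

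The same share was over 50% in 8 genes. Beside PSMC1 they were PSMC6 (94.3%), PSME2 (94.2%), PSMA6 (92.7%), PSMD4 (87.4%), PSMD2 (69.1%), PSMB3 (55.6%) and PSMD10 (54.5%). PSMA6 had the highest level of the 49 genes in total RNA without transfection, PSMC6 was the lowest ATPase after PSMC1, and PSMD4 was the lowest of the base genes that are not ATPases. Levels of these 8 genes are therefore less certain than those of the others.

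Base subunits that are not ATPases, which bind ubiquitin and its shuttles, had a median of 114 RPKM, and PSMD4 was the lowest of the 3 at 63.5 RPKM. Among the activators, PSME1 was highest with 192 RPKM and PSME4 lowest with 57.4 RPKM. Factors that assemble the complex without staying in it were lower. The base chaperones PSMD5, PSMD9 and PSMD10 had a median of 26 RPKM (12.2 RPKM for PSMD9 to 32.2 RPKM for PSMD5), and the core chaperones PSMG1 to PSMG4 a median of 27.7 RPKM (12.8 RPKM for PSMG4 to 83.8 RPKM for PSMG1). The inhibitor PSMF1 had 37 RPKM.

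The order of the levels was nearly the same in all total RNA libraries. Across the 47 genes Spearman's rho of the non-transfected levels was 0.99 with those under miR-195 and 0.97 with those under miR-497, as a description, since the libraries share gene lengths and cell line. Over 13298 genes both values were 0.99.

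**Figure D1:**
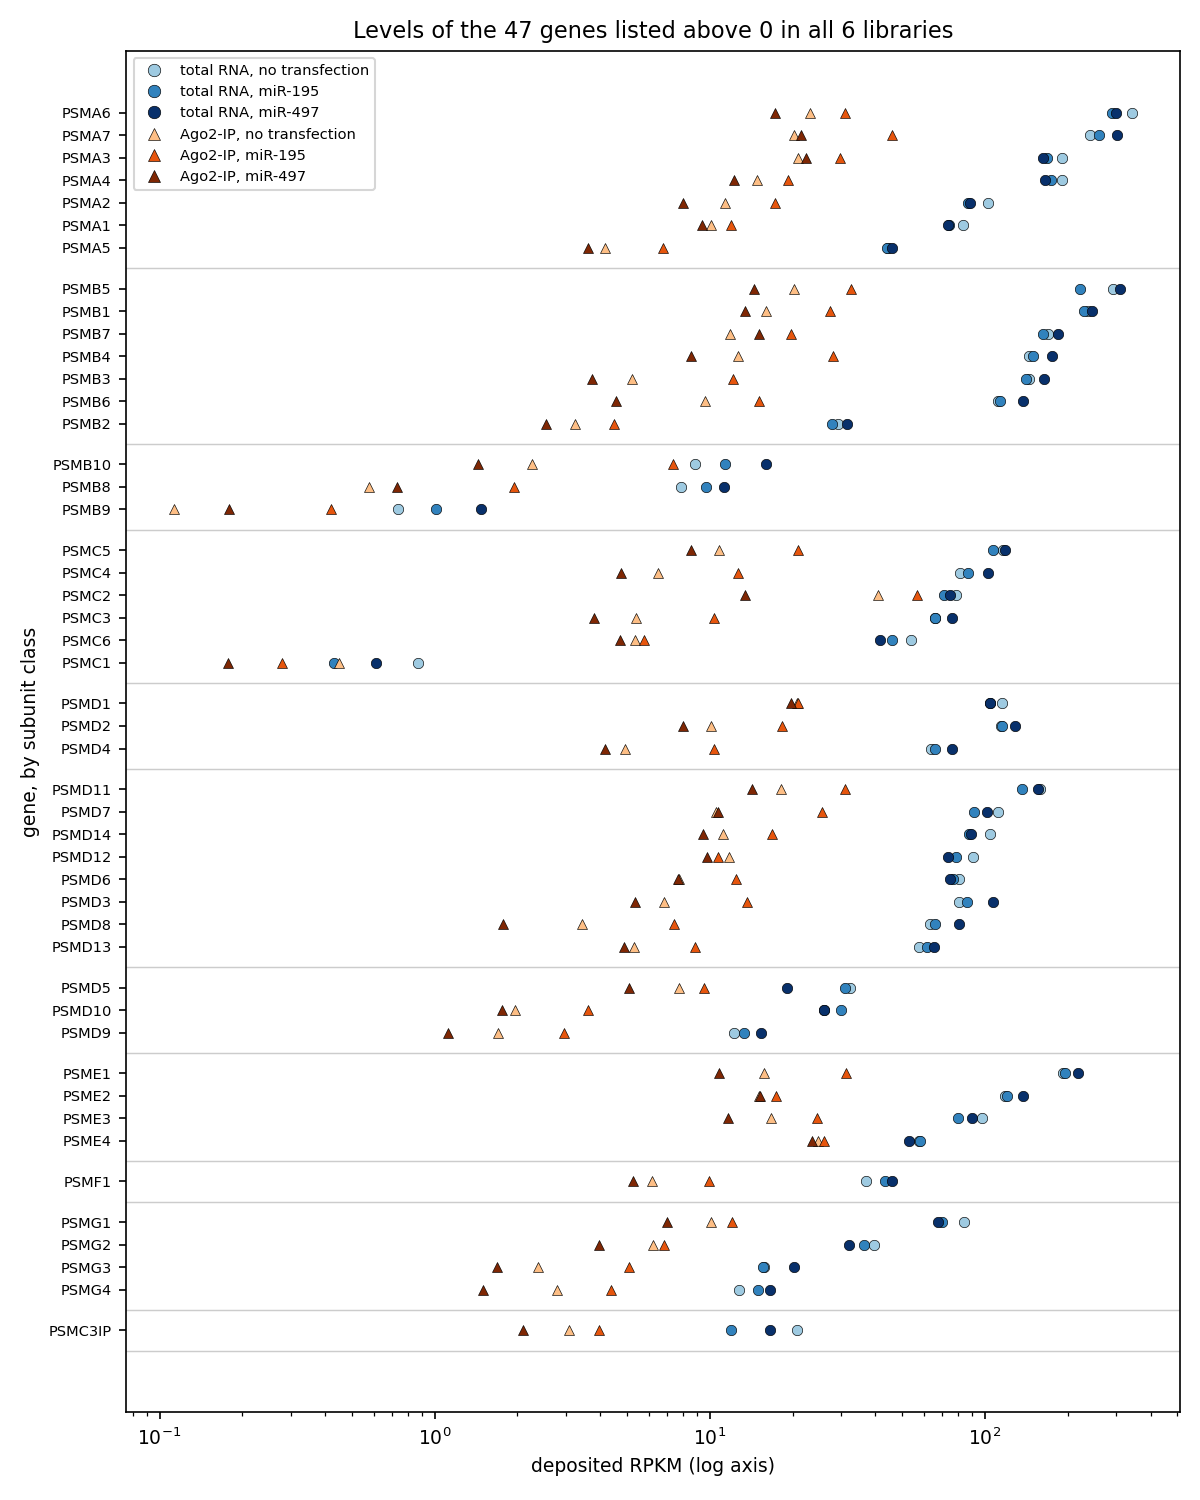
Deposited RPKM (log axis) of the 47 genes above 0 in all 6 libraries, grouped by subunit class, with circles for total RNA and triangles for Ago2-IP. The immunoproteasome genes PSMB8, PSMB9 and PSMB10 and the ATPase gene PSMC1 lie below the other core and regulatory particle genes in total RNA, and the Ago2-IP triangles of PSMC2 and PSME4 lie closer to their circles than those of most other genes.

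The immunoproteasome genes were expressed at a small percentage of the constitutive genes they replace. PSMB9, which replaces PSMB6, had 0.733 RPKM without transfection, 1.01 under miR-195 and 1.48 under miR-497 in total RNA, from 19, 31 and 48 reads. PSMB6 had 112, 113 and 137 RPKM in the same libraries. The PSMB9 level was thus 0.656% (95% counting interval 0.417 to 1.03), 0.893% (0.627 to 1.27) and 1.08% (0.813 to 1.44) of the PSMB6 level, and neighbouring intervals overlapped. These libraries average over all cells, so fewer expressing cells and less RNA in each cell cannot be told apart.

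PSMB10, which replaces PSMB7, had 8.8 RPKM without transfection, 11.4 under miR-195 and 16 under miR-497 in total RNA. As a percentage of PSMB7 this was 5.18% (4.51 to 5.94), 7% (6.26 to 7.83) and 8.62% (7.86 to 9.46), with the reads of PSMB7 known approximately. The 3 intervals did not overlap.

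PSMB8, the counterpart of PSMB5, had 7.87, 9.67 and 11.3 RPKM in the same order. It stood at 2.69% (2.40 to 3.01), 4.36% (3.96 to 4.79) and 3.67% (3.36 to 3.99) of PSMB5, so the percentage was highest under miR-195. PSMB5 itself was lower there, with 222 RPKM compared with 293 RPKM without transfection and 309 RPKM under miR-497.

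Reads were few in Ago2-IP. PSMB10 was at 2.25 RPKM without transfection, 7.35 under miR-195 and 1.44 under miR-497 there, from 37, 98 and 15 reads, which was 19% (13.4 to 27), 37.3% (29.6 to 47) and 9.5% (5.60 to 16.1) of PSMB7. PSMB8 had 15, 41 and 12 reads, and PSMB9 had 2, 6 and 2 reads. PSMB8 (chr6:32808494-32812456, minus strand) and PSMB9 (chr6:32811913-32827628, plus strand) overlap on hg19, and strand-specific counting is not stated, so reads from the overlap cannot be assigned to either gene.

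**Figure D2:**
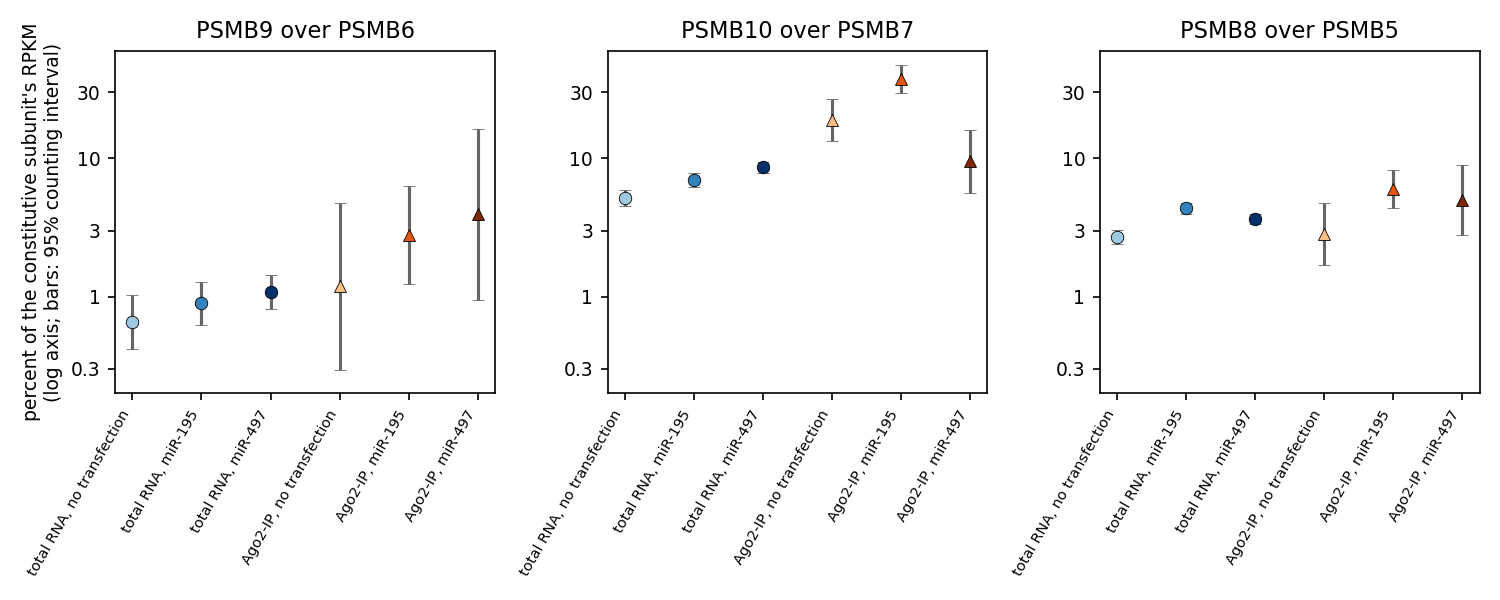
Level of each immunoproteasome gene as a percentage of the RPKM of the constitutive gene it replaces (log axis), by library, with bars for the 95% counting interval. In total RNA the percentage was lowest without transfection for all 3 pairs, and the bars of PSMB9 in Ago2-IP, drawn from 2 to 6 reads, span most of the axis.

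Changes are given from here on as log2 ratios of RPKM minus the median log2 ratio of all genes in the same comparison, so that 0 is the median gene. A gene was called higher or lower where it lay more than 1.5-fold from that median. The median subtracted was 0.02 for miR-195 and 0.09 for miR-497 in total RNA, 0.48 and -0.23 in Ago2-IP, and -1.62 for Ago2-IP over total RNA without transfection.

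In total RNA the proteasome genes stayed close to the median gene with both mimics. Under miR-195 the 47 genes had a median of -0.07, and their middle 50% lay between -0.21 and 0.04, compared with -0.26 and 0.29 for the 14740 genes scored. None was called higher, while 12.9% of all genes were, and 2 were called lower, against 8.93% of all genes. Of genes at 10 RPKM or more in non-transfected total RNA, 1.84% were called higher and 7.32% lower, and under miR-497 2.81% and 5.43%. Under miR-497 the median was -0.04, 2 genes were called higher (14.2% of all 14768 genes) and 2 lower (7.36% of all genes). The sign of that median was not stable, since it was 0.05 without centring, 0.07 when the changes were centred on genes at 10 RPKM or more, 0.02 after a pseudocount of 1 and 0.01 for genes of at least 1 RPKM. Altogether, 42 of 47 genes (89.4%) stayed within 1.5-fold of the median gene with both mimics, compared with 69.4% of 14542 genes. At 10 RPKM or more in non-transfected total RNA these shares were 95.3% of 43 proteasome genes and 87.1% of 5874 genes.

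By class, core alpha genes had a median of -0.18 under miR-195 and -0.28 under miR-497, and 6 of the 7 lay below the median gene with each mimic, PSMA7 being above it with 0.10 and 0.25. Constitutive beta genes had medians of -0.07 and 0.03. The ATPases had -0.15 and -0.11, and the lid genes -0.16 with each mimic. PSMB8, PSMB9 and PSMB10 lay above the median gene with both mimics, at 0.28, 0.44 and 0.36 under miR-195 and at 0.43, 0.92 and 0.77 under miR-497.

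The 2 genes called higher were PSMB9 (0.92, 95% interval 0.16 to 1.69) and PSMB10 (0.77, 0.54 to 1.0), both under miR-497. Under miR-195 the calls were PSMC1 (-1.03, -1.83 to -0.23), from the few reads given above, and PSMC3IP (-0.81), both lower. The RPKM of PSMC3IP in total RNA was 20.7 without transfection, 11.9 under miR-195 and 16.5 under miR-497. PSMC1 was also called lower under miR-497 (-0.60), but its interval of -1.30 to 0.11 included 0.

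PSMD5, a chaperone that helps the ATPase ring assemble (chr9:123577774-123605229, minus strand), was lower under miR-497 alone. Its total RNA level was 32.2 RPKM without transfection, 31 RPKM under miR-195 and 19.1 RPKM under miR-497, from 2697, 3078 and 2006 reads. The miR-497 library was low and the other two were close to each other. The change was -0.84 (-0.93 to -0.76) under miR-497 and -0.07 (-0.15 to 0.00) under miR-195. Set directly against each other, miR-195 over miR-497, PSMD5 was the single gene called higher (0.77, 0.69 to 0.85), where 7.06% of 15042 genes were, and none was called lower (9.21% of all genes). Of genes at 10 RPKM or more in non-transfected total RNA, 1.19% were called higher and 2.37% lower. In Ago2-IP PSMD5 had 7.76, 9.54 and 5.1 RPKM in the same order of conditions. Neither TGCTGCT nor GCTGCT was present in its 3′UTR of 1853 bases. The other base chaperones were at 0.11 (PSMD9) and 0.19 (PSMD10) under miR-195 and at 0.24 and -0.09 under miR-497.

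PSMB5, the subunit with the chymotrypsin-like site, was lower under miR-195 alone by less than the call demands. Its 10531, 9473 and 13895 reads gave changes of -0.42 (-0.46 to -0.38) under miR-195 and -0.02 (-0.05 to 0.02) under miR-497. GCTGCT was present in an annotated 3′UTR of PSMB5, and TGCTGCT was not.

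The activators and chaperones gave small changes in total RNA. PSME1 and PSME2, the interferon-inducible partners of the PA28 ring, were at 0.01 and 0.00 under miR-195 and at 0.09 and 0.12 under miR-497. PSME3, the nuclear member of that family, had 97.2, 79.9 and 89.9 RPKM, with changes of -0.30 (-0.34 to -0.25) and -0.20 (-0.25 to -0.16). The alpha-ring chaperones PSMG1 and PSMG2, which act as a pair, were each at -0.40 under miR-497, while PSMG3 and PSMG4, which form the other pair, were at 0.27 and 0.28. All 4 intervals left out 0. The GC contents of these pairs are 42.1% and 41.3% against 59.4% and 53.2%. PSMF1 was at 0.22 with each mimic.

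**Figure D3:**
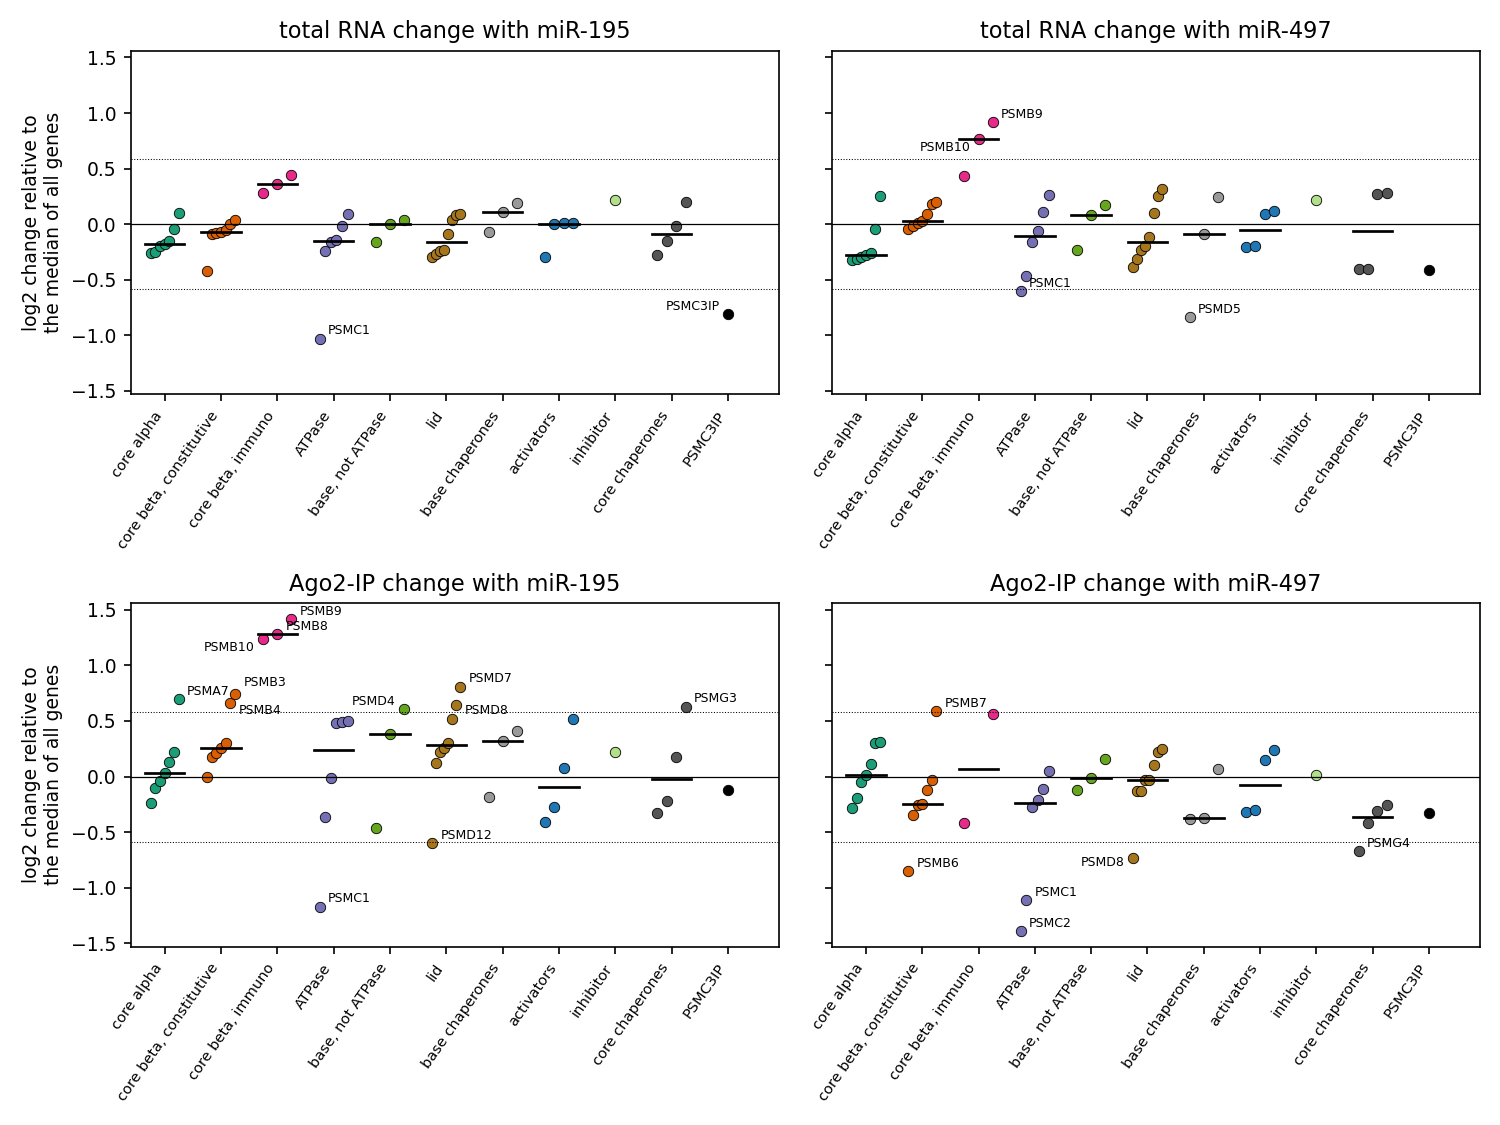
Log2 change of each gene relative to the median of all genes (solid line at 0), by subunit class, in total RNA (upper panels) and Ago2-IP (lower panels) under miR-195 and miR-497, with short bars for class medians and dotted lines at 1.5-fold. Genes past 1.5-fold are named. Points in total RNA crowd around 0 while those in Ago2-IP spread more, and PSMB9 and PSMB11 are left out of the lower right panel because both libraries held at most 2 reads.

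Without transfection, most proteasome genes had a lower ratio of Ago2-IP to total RNA than the median gene. The median of the 47 genes was -1.72 relative to the median gene, 42 of them were called lower (31.2% of 14101 genes) and 2 higher (32.3% of all genes). Abundant genes in general lay lower in this ratio. The 5873 genes with at least 10 RPKM in non-transfected total RNA had a median of -0.67, with 53.3% called lower, and the 43 proteasome genes of that level had a median of -1.76. Other families of abundant genes had values near those of the proteasome, with medians of -1.67 for 79 cytosolic ribosomal protein genes, -1.85 for 86 respiratory chain genes and -1.41 for 76 mitochondrial ribosomal protein genes. Transcript length and level moved with this ratio, and their part in it was not tested. Across the 47 genes rho was 0.37 with length and -0.50 with level in total RNA, and across all genes scored 0.39 and -0.62. The points share 2 libraries. These libraries were made from different amounts of RNA, and whether poly-A selection was applied to both is not stated. The ratio therefore cannot separate Ago2 association from library preparation, and the part of preparation was not tested.

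Constitutive beta genes had the lowest class median, -2.23, and ranged from -3.18 for PSMB3 to -1.57 for PSMB2. The base genes that are not ATPases had a median of -1.88. Alpha genes had a median of -1.80 with a narrow range from -2.27 for PSMA6 to -1.42 for PSMA1. The lid genes, with -1.78, ranged from -2.59 for PSMD8 to -1.34 for PSMD12. PSMB3 had 144 RPKM in total RNA and 5.2 RPKM in Ago2-IP, and at -3.18 (-3.53 to -2.83) it was the lowest of the 47. Of its 36-base windows 55.6% matched elsewhere, so its levels are among the less certain ones, which the counting interval does not cover.

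PSMC2, an ATPase of the base (chr7:102969017-103010793, plus strand), went against its class. It had 78.4 RPKM in total RNA, a level like those of the other ATPases, but 41 RPKM in Ago2-IP, the highest Ago2-IP value of the 49 genes. The ratio was 0.68 (0.58 to 0.78) relative to the median gene, whereas PSMC3, PSMC4, PSMC5 and PSMC6 lay between -2.04 and -1.72. The other gene called higher was PSMC1 (0.67), whose interval of -0.28 to 1.62 included 0. PSME4, a large activator of the core with the longest transcript of the family except PSMF1, was next with 0.40 (0.34 to 0.46), from 57.4 RPKM in total RNA and 24.7 RPKM in Ago2-IP.

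**Figure D4:**
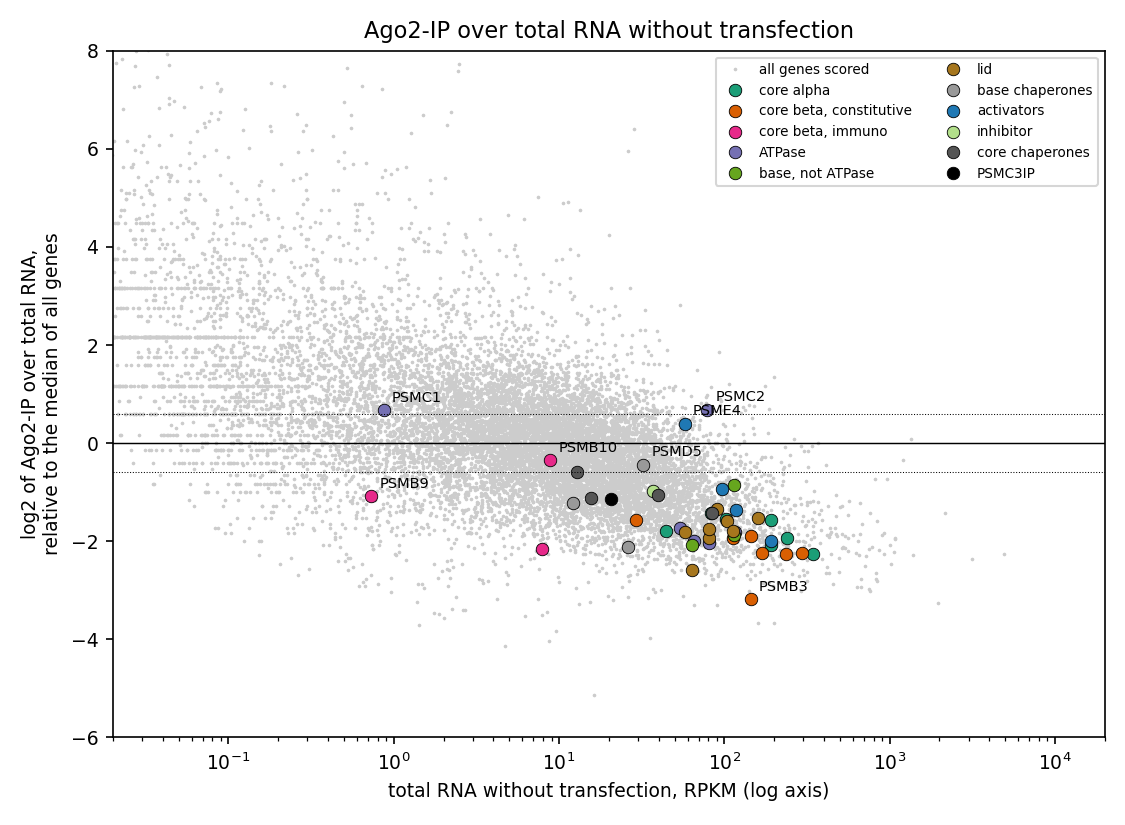
Log2 ratio of Ago2-IP to total RNA without transfection, relative to the median of all genes, against total RNA RPKM (log axis), with small points for all genes inside the axis limits, large points for proteasome genes by class and dotted lines at 1.5-fold. Most proteasome genes lie below the lower dotted line, and PSMC2 and PSME4 lie above them at similar total RNA levels.

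In Ago2-IP under miR-195 the proteasome genes lay a little above the median gene, with a median of 0.22, and 33 of the 47 above 0. Of these, 10 were called higher (21.4% of 14291 genes) and 2 lower (17.4% of all genes). The share called higher, 21.3%, was near that of all genes. Of genes at 10 RPKM or more in non-transfected total RNA, 17.2% were called higher and 12.6% lower. Without centring, where the median gene stood at 0.48, 30 proteasome genes were higher and 1 lower. The share of all genes was not computed there. The highest were the immunoproteasome genes, at 1.42 for PSMB9 (-0.89 to 3.72), 1.28 for PSMB8 (0.43 to 2.13) and 1.24 for PSMB10 (0.69 to 1.78). The wide interval of PSMB9 follows from 2 and 6 reads.

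In the core, PSMA7 (0.70), PSMB3 (0.74) and PSMB4 (0.66) were called higher. PSMA7 had 20.3 RPKM without transfection and 46 RPKM under miR-195, against 21.4 RPKM under miR-497. All 7 constitutive beta genes lay at or above the median gene, from 0.00 for PSMB2 to 0.74 for PSMB3. Outside the core, the calls were PSMD7 (0.81) and PSMD8 (0.64) in the lid, the ubiquitin receptor PSMD4 (0.61) in the base and the chaperone PSMG3 (0.63), whose interval of -0.01 to 1.27 included 0. Those called lower were PSMC1 (-1.17, -2.58 to 0.24) and the lid gene PSMD12 (-0.60, -0.83 to -0.37).

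By class, the median Ago2-IP change under miR-195 was 0.03 for the alpha genes, 0.26 for the constitutive beta genes, 0.24 for the ATPases and 0.28 for the lid genes. The activators had the lowest median of the classes with more than 3 genes, -0.09, and ranged from -0.41 for PSME4 to 0.52 for PSME1. PSME4 had nearly equal Ago2-IP levels, 24.7 RPKM without transfection, 25.9 under miR-195 and 23.5 under miR-497, so that its position moved with the median of all genes.

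Under miR-497 the Ago2-IP values lay near the median gene, with a median of -0.12 over 48 genes. Of these, 5 were called lower (10.3% of 13866 genes) and 3 higher (12.3% of all genes). Of genes at 10 RPKM or more in non-transfected total RNA, 7% were called lower and 2.5% higher. Without centring, where the median gene stood at -0.23, 9 proteasome genes were lower and 2 higher. The share of all genes was not computed there. Among the 3 called higher, PSMB7 was at 0.59. PSMB9 and PSMB11 had at most 2 reads in either library, so no fold is given for them. The 5 called lower were PSMC2, PSMC1 (-1.11, -2.94 to 0.71), PSMB6 (-0.85, -1.36 to -0.34), PSMD8 (-0.73, -1.34 to -0.13) and PSMG4 (-0.67, -1.51 to 0.18). The intervals of PSMC1 and PSMG4 included 0.

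The class medians under miR-497 were 0.01 for the alpha genes, -0.25 for the constitutive beta genes, -0.24 for the ATPases and -0.03 for the lid genes. All 4 core chaperones lay below the median gene, from -0.67 for PSMG4 to -0.26 for PSMG3, with a median of -0.36, and each of their intervals included 0.

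PSMC2 was the lowest. Its Ago2-IP level was 41 RPKM without transfection, 56.8 RPKM under miR-195 and 13.4 RPKM under miR-497, from 1054, 1180 and 218 reads. The miR-497 library was low, and the other two were high. The change was -1.39 (-1.60 to -1.18) under miR-497 and -0.01 (-0.13 to 0.11) under miR-195. In total RNA the levels of PSMC2 were close to each other, 78.4, 70.9 and 74.6 RPKM, and both changes were -0.16. The other ATPases apart from PSMC1 lay between -0.27 and 0.05 in Ago2-IP under miR-497. The deposited RPKM steps of PSMC2 correspond to a length of 1527 bases, whereas its annotated principal transcript with the TGCTGCT site shown above has 2712 bases. In an annotated PSMC2 transcript of 2139 bases, 38.3% of the 36-base windows matched elsewhere.

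The fold enrichment score, by which the study ranked candidate targets, divides the Ago2-IP ratio of mimic to non-transfected cells by the same ratio in total RNA. Under miR-195 the proteasome genes had a median log2 score of 0.33 relative to the median gene, 12 were called higher (18.6% of 13749 genes) and none lower (16.9% of all genes). Of genes at 10 RPKM or more in non-transfected total RNA, 17.6% were called higher and 6.5% lower. PSMD7, the lid partner of the deubiquitinase subunit PSMD14, had the highest score, 1.10 (0.89 to 1.31). Its Ago2-IP level was 10.5 RPKM without transfection, 25.5 under miR-195 and 10.7 under miR-497, from 293, 576 and 189 reads, so the miR-195 library alone was high. In total RNA PSMD7 had 112, 91.6 and 102 RPKM, with changes of -0.30 (-0.36 to -0.24) and -0.23 (-0.28 to -0.17). Its score under miR-497 was 0.44 (0.17 to 0.71). PSMD7 carries the 8-base form of the site, 60 bases into its 3′UTR.

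The other scores past 1.5-fold under miR-195 were those of PSMB8 (0.99), PSMB9 (0.97), PSMB10 (0.87), PSMB3 (0.78), PSMC3IP (0.69), PSMG3 (0.65), PSMB4 (0.62), PSMB5 (0.62), PSMC5 (0.62), PSMD8 (0.60) and PSMA7 (0.59). The intervals of PSMB9 (-1.49 to 3.42) and PSMG3 (-0.03 to 1.32) included 0. None of these 11 genes has TGCTGCT in an annotated 3′UTR, and 37 of the 47 genes scored lack it. The shorter word GCTGCT was present in PSMB5, PSMD8 and PSMG3. Core beta genes made up 6 of the 12 called higher, and 10 of the 47 scored.

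Under miR-497 the median score was -0.05, 6 genes were called lower (20.6% of 13430 genes) and 1 higher (12.6% of all genes). Of genes at 10 RPKM or more in non-transfected total RNA, 13.2% were called lower and 7.19% higher. Centred on genes at 10 RPKM or more, 13 proteasome genes were lower and 0 higher, and without centring 14 were lower and 0 higher. The median gene stood at -0.28 without centring, and shares of all genes were not computed for these settings. The 6 called lower were PSMC2 (-1.26, -1.49 to -1.04), PSMB10 (-1.22, -2.12 to -0.33), PSMB6 (-1.09, -1.60 to -0.57), PSMD8 (-1.02, -1.63 to -0.41), PSMG4 (-0.99, -1.86 to -0.11) and the base chaperone PSMD9 (-0.65, -1.30 to -0.00). The alpha gene PSMA3 was called higher (0.60, 0.35 to 0.85). Its Ago2-IP level was 21 RPKM without transfection, 29.8 RPKM under miR-195 and 22.3 RPKM under miR-497.

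Of the 47 genes scored throughout, 25 (53.2%) stayed within 1.5-fold of the median gene in every mimic comparison, total RNA, Ago2-IP and score alike. Of 13298 genes 34.9% did so. At 10 RPKM or more the shares were 58.1% of 43 proteasome genes and 49.8% of 5872 genes.

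The 10 genes with TGCTGCT had a median total RNA change of -0.13 under miR-195 and -0.08 under miR-497, and the 37 scored without it -0.05 and -0.02. Among all genes the corresponding medians were -0.08 with the site and 0.02 without it, for each mimic. For the score under miR-195 the 10 had a median of 0.17, with a range from -0.15 for PSMC1 to 1.10 for PSMD7, and those without the site 0.37. Over all genes the order was the other way, with 0.10 with the site and -0.01 without. Under miR-497 the median score was -0.21 with the site and -0.01 without it, and over all genes 0.04 with the site and -0.03 without. For PSMF1, with 4 sites, the total RNA level was 37, 43.4 and 45.9 RPKM in the 3 conditions and the Ago2-IP level 6.14, 9.92 and 5.28 RPKM. The inferred length behind the deposited values was shorter than the site-bearing transcript also for PSMC1, PSMD9, PSMD11, PSMF1 and PSMG4. These lengths were 1586 against 4390 bases for PSMC1, 2343 against 2725 for PSMD9, 1581 against 3850 for PSMD11 and 3842 against 8154 for PSMF1. For PSMG4 it was 938 bases, while the 3′UTR that holds its site has 4226. The sites of these genes may therefore lie outside the counted transcript.

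GC content of the transcript moved with several of these values. Across 47 proteasome genes, rho between GC content and the total RNA change was 0.52 under miR-195 and 0.81 under miR-497, and between GC content and miR-195 over miR-497 it was -0.83. With the Ago2-IP change it was 0.68 under miR-195 and, over 48 genes, -0.14 under miR-497. With the score it was 0.59 under miR-195 and -0.65 under miR-497. Genes with at least 10 RPKM in non-transfected total RNA, taken over the whole table, had 0.27 and 0.76 in total RNA, 0.56 and -0.29 in Ago2-IP and 0.47 and -0.73 for the score. These are descriptions over genes that share the same libraries and depth, and the part of GC content in the changes was not tested.

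The size of this relation is seen when the genes are split by GC content. Under miR-497 in total RNA the 15 genes with the lowest GC content (36.4 to 43.8%) had a median change of -0.31, the 17 in the middle 0.01, and the 15 with the highest (52.2 to 61.7%) 0.25. For the score under miR-497 the same sets had medians of 0.21, -0.03 and -0.42, and for the Ago2-IP change under miR-195 -0.10, 0.26 and 0.52. PSMB10 had the highest GC content of the family, 61.7%, and PSMB8 and PSMB9 had 54.9% and 52.4%. PSMC6, with 36.4% the lowest of the scored genes, was at -0.47 under miR-497 in total RNA. PSMD5 (40.7%) at -0.84 in total RNA and PSMC2 (38.8%) at -1.26 in the score lay apart from genes of similar GC content.

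**Figure D5:**
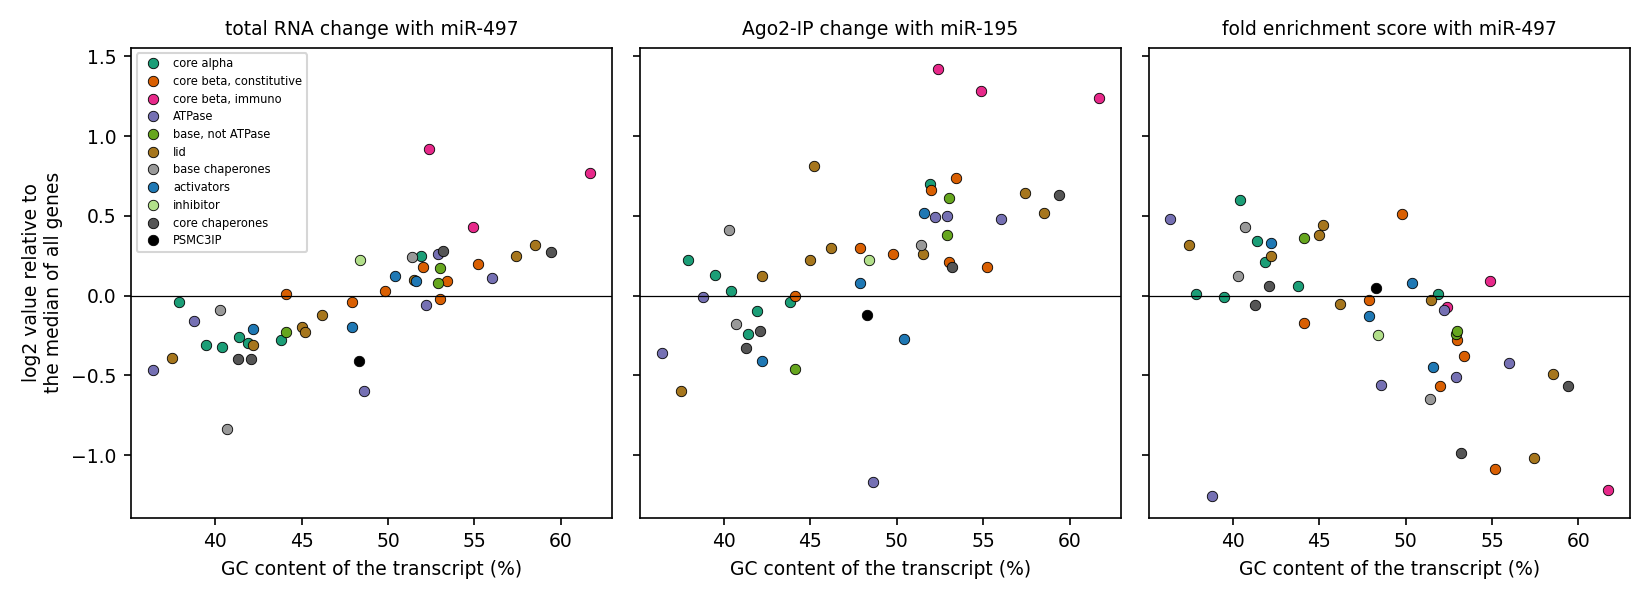
Log2 value relative to the median of all genes against the GC content of the transcript (%), 1 point for each proteasome gene, for the total RNA change under miR-497, the Ago2-IP change under miR-195 and the fold enrichment score under miR-497. Values increase with GC content in the first 2 panels and decrease in the last, and PSMD5 (lowest point of the left panel) and PSMC2 (lowest point of the right panel) lie away from the other genes of their GC content.

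Genes that act with the proteasome under other names were also close to the median gene in total RNA. These were 8 further subunits and partners, 4 genes that control proteasome transcription, 8 that deliver substrates and 5 of ubiquitin and its activation. None was called higher or lower in total RNA with either mimic. Most lay at 10 RPKM or more in non-transfected total RNA. Of all genes at that level 1.84% were called higher and 7.32% lower under miR-195, and 2.81% and 5.43% under miR-497. NFE2L1, the activator of proteasome genes, had 46 RPKM without transfection, 33.5 under miR-195 and 49.1 under miR-497, with changes of -0.47 and 0.00. Its change under miR-195 was the lowest of the 4 control genes. In Ago2-IP under miR-195, ADRM1, a ubiquitin receptor of the base, was at 0.83 and the deubiquitinase UCHL5 at -0.96. There 3 of the 5 ubiquitin genes were called higher, with UBB at 0.82, compared with 21.4% of all genes and 17.2% at 10 RPKM or more. Under miR-497 in Ago2-IP the 1 call among these 25 genes was NFE2L2, a stress factor that also induces proteasome genes, at -0.66. Of all genes 12.3% were called higher and 10.3% lower in that comparison, and 2.5% and 7% at 10 RPKM or more.

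Antigen presentation and interferon genes, the company of the immunoproteasome, were listed because PSMB8 and PSMB9 lie beside TAP1 and share its induction. The 15 genes had a median total RNA change of 0.32 under miR-195 and 0.47 under miR-497, with 5 called higher and none lower with each mimic, where 12.9% and 14.2% of all genes were called higher. IFIT2, called higher with both, had 0.0231 RPKM without transfection and at most 0.0585 RPKM with a mimic. TAP1, the peptide transporter, had 8.54 RPKM without transfection, 13.4 under miR-195 and 14.5 under miR-497. IRF1, an inducer of the immunoproteasome genes, had 1.16, 1.99 and 2.14 RPKM. Their changes were 0.64 and 0.76 under miR-195 and 0.67 and 0.79 under miR-497. The list was not uniform, since B2M, the light chain of the presenting molecules, was at 0.09 under miR-195 and -0.10 under miR-497. In Ago2-IP 8 of the 15 were called higher and none lower under miR-195 (median 0.75), where 21.4% of all genes were called higher, and 2 higher and 1 lower of 14 scored under miR-497 (median 0.15).

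Other large complexes also stayed near the median gene in total RNA. Under miR-195 the median change was -0.09 for 82 cytosolic ribosomal protein genes, 0.01 for 87 respiratory chain genes and -0.16 for 76 mitochondrial ribosomal protein genes, beside -0.07 for the proteasome. Under miR-497 the medians were 0.12, 0.07 and -0.06, beside -0.04. In Ago2-IP under miR-195 they were 0.43, 0.54 and 0.26, beside 0.22. These are medians of lists from single libraries, and their differences were not tested.

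Promoters of 300 bases around the start site could be matched for 43 of the 49 genes (RefSeq, GRCh38.p14). TGACNNNGC, the core of the antioxidant response element that NFE2L1 binds, was found on either strand in 15 of the 43 (34.9%), and in 16.1% of 27305 promoters. CCAAT was found in 48.8% of the proteasome promoters and 39.7% of all, and GGGCGG in 69.8% and 48.3%. TGACGTCA was in none of the 43 and in 2.25% of all. A word of these letters is no evidence of binding, and 1 stretch can hold more than 1 of the words.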

How the data were processed

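Total RNA and Ago2-IP RNA of Hep G2 were sequenced as 36-base single reads. Per the methods and labels, the authors mapped the reads to hg19 with ELANDv2 and deposited the abundance of each gene as RPKM computed with CASAVA 1.7. The gene annotation and filters are not given in the sources used here. Input was 10 ng of Ago2-IP RNA or 3 µg of total RNA. Poly-A selection was applied to some libraries, and the sources used here do not say to which. All 6 value columns were matched to samples by name, and 0 columns were left over.

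The 28 symbols on more than 1 line, none a proteasome gene, were averaged. Log2 ratios used genes above 0 in all libraries of a comparison, with no pseudocount, and were centred on the median of those genes. RPKM are not counts, so no count test was run, and with 1 library a group no p-value is given. Whole reads were inferred from the steps between RPKM values for 91.5% of 8879 genes. The procedure was tested on simulated data. Intervals of 95% are on the log scale and cover counting error, and PCR copies are not independent. PSMA4, PSMB7, PSMC5 and PSMC3IP have approximate reads and no interval of their own.

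Target words were searched in 3′UTRs of GENCODE 44 on GRCh37, with 18421 symbols matched (1833 through an older symbol). Windows of 36 bases were compared with the genome by BLAST+ 2.17.0. They came from the annotated transcript nearest to the inferred length, or from the principal one where no length was inferred. Members, subunit classes and gene lists were chosen with earlier results of these data known. Genes named are the extremes of each class, the catalytic pairs, genes past 1.5-fold, genes with the 7-base word, those at 0 and genes of the fixed lists. PSMB5 in total RNA, PSME4 and PSMC6 were singled out after their values were seen. Alternatives were pseudocounts of 0.1 and 1, an RPKM of at least 1, no centring, centring on genes with an RPKM of at least 10, thresholds of 1.25-fold and 2-fold, lines kept apart, TPM for levels, words of 6 and 8 bases and the family without its tissue-specific genes and PSMC3IP. Leaving out the 8 genes with over 50% of windows copied was chosen after seeing the data. Python 3.11.15, numpy 2.4.6, pandas 2.3.3, scipy 1.17.1, matplotlib 3.10.9 and samtools 1.23.1 were used.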

Additional observations from a re-analysis of the deposited data

Results flagged for a closer look

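Both results here were picked because the values under miR-195 and under miR-497 lay past 1.5-fold on opposite sides of the median gene. Each rests on 1 library a condition, the comparisons share the non-transfected libraries, and the differences were not tested.

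PSMD8, a lid gene, had a log2 change in Ago2-IP of 0.64 under miR-195 and -0.73 under miR-497, and a fold enrichment score of 0.60 and -1.02. Its Ago2-IP levels were 3.44 RPKM without transfection, 7.44 under miR-195 and 1.77 under miR-497, from 89, 156 and 29 reads, and in total RNA it had 63.4, 65.8 and 80.4 RPKM. PSMB10, the immunoproteasome gene, had a score of 0.87 under miR-195 and -1.22 under miR-497. The GC contents of their transcripts, 57.4% and 61.7%, were among the highest of the family, and the part of base composition was not tested.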

How the results depend on the processing

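Of 64 family medians recomputed, 48 moved by under 0.1 (log2) and 16 moved by more. The total RNA median under miR-497, -0.04, was above 0 under 4 of the alternatives, at 0.01 to 0.07. Without centring the median was 0.70 for Ago2-IP under miR-195, -0.35 for Ago2-IP under miR-497, -3.33 for Ago2-IP over total RNA, 0.80 for the score under miR-195 and -0.33 for the score under miR-497. A pseudocount of 1 gave 0.40 for Ago2-IP under miR-195, -2.22 for Ago2-IP over total RNA, 0.51 for the score under miR-195 and -0.19 for the score under miR-497, and one of 0.1 gave -1.96 for Ago2-IP over total RNA and 0.44 for the score under miR-195. Centring on genes with at least 10 RPKM gave 0.07 for total RNA under miR-497, -1.37 for Ago2-IP over total RNA and -0.25 for the score under miR-497. For Ago2-IP over total RNA, an RPKM of at least 1 gave -1.52, and leaving out the 8 genes with copied windows gave -1.57.

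Of 160 counts of calls, 99 stayed within 1.5 times. The genes higher in Ago2-IP under miR-195 numbered 10, with 3 at 2-fold and 30 without centring. The genes with a higher score under miR-195 numbered 12, with 1 at 2-fold and 33 without centring, and those lower in Ago2-IP over total RNA 42, with 35 to 47 over the alternatives. Counts and medians without centring include the shift of the median gene, 0.48 for Ago2-IP and 0.47 for the score under miR-195. Shares of all genes were not computed for the alternatives. The 6-base word was in 30.6% and the 8-base word in 6.12% of the genes. No paired analysis was possible because each group is 1 library. For the same reason no library could be left out. PSMB9 and PSMC1 had at most 12 reads in each Ago2-IP library, so their counting intervals are wide.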
